A study of Mus musculus with 32 samples.

Results

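The dose experiment of this series compared tumors from mice that received regorafenib at 20 mg/kg/day (high dose) with tumors from mice that received 5 mg/kg/day (low dose). The comparison used 6 of the 32 RNA-seq samples, 3 per dose, chosen by treatment and batch label, and the 4 vehicle samples of the same experiment served as a reference level and entered the filter on low counts and the estimate of the spread. All 10 tumors came from BALB/c mice bearing BNL-MEA cells, a chemically transformed mouse liver line, which the study injected into the left lobe of the liver, beneath its capsule, before treatment began. Regorafenib or its vehicle was given by oral gavage. The model rests on 1 cell line in a host with an intact immune system, and each library is whole tumor RNA. In such bulk samples, fewer cells of a type and less RNA per cell cannot be told apart. The labels do not say whether replicates are separate animals, so every test below measures the spread between these samples. The fit pooled this spread over the 3 groups, whose libraries were not equally alike. The chi-square per degree of freedom between 2 libraries of a group, larger where counts differ more, was 13.97 to 64.06 in vehicle. It was 25.72 to 187.2 at the low dose and 215.2 to 918.5 at the high dose. The question was which genes separate the doses, and which of them lay on opposite sides of the vehicle level.

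Regorafenib is an oral multikinase inhibitor whose known targets include the VEGF, PDGF and FGF receptors, Kit, Ret, Raf kinases and the CSF1 receptor. CSF1 receptor signaling keeps macrophages and their monocyte precursors alive. Monocytes leave the blood for tumors along gradients of Ccl2, Ccl7 and Ccl12, which act through the receptor Ccr2. Tumor cells short of oxygen stabilize hypoxia-inducible factors, which switch on Vegfa, glycolytic enzymes and their own feedback hydroxylase Egln3.

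Libraries held 16767130 to 27693689 gene counts, and values are given as CPM, counts scaled to a common library total, after TMM scaling, or as log2 changes from the model with their standard error (SE). The high dose libraries differed among themselves. The level of a 40-gene hepatocyte list (mean log2 CPM) was 11.02, 8.57 and 5.65 in high dose replicates 1 to 3, against 4.80 to 8.63 at the low dose and 3.24 to 6.52 in vehicle. High dose replicate 1 also had 5.37% of its counts on mitochondrial genes, against 1.77 to 2.86% in the other 9 libraries, and its 10 most abundant genes took 11.9% of counts, against 5.80 to 7.18%. High dose replicates 2 and 3 lay inside the low dose range for the hepatocyte list, replicate 3 near the level of low dose replicate 1 (5.31). Epithelial markers of the tumor label varied between the low dose libraries, with Krt8 at 14.8 to 125 CPM and Epcam at 0.419 to 5.30 CPM.

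Of 16525 genes tested, 697 (4.22%) passed an adjusted p of 0.05 between the doses (edgeR quasi-likelihood test with Benjamini-Hochberg adjustment), and "passed" and "called" refer to this fit unless another tool is named. At the high dose 288 genes (1.74%) were higher and 409 (2.48%) were lower, and 4842 (29.3%) had an unadjusted p under 0.05. The falls were led by genes of monocytes and macrophages, and the rises included Vegfa and other hypoxia targets. All 697 kept their direction when each library was left out in turn, over the genes still tested. The number passing did not hold. It was 62 without low dose replicate 1, 80 without low dose replicate 2, 284 without low dose replicate 3 and 4488 without high dose replicate 3. Omitting a vehicle library gave 238, 411, 253 and 258 calls for replicates 1, 2, 3 and 4. With the vehicle libraries left out of the fit, edgeR called 0 genes (2650 at an unadjusted p under 0.05) and limma voom also 0 (2611 at an unadjusted p under 0.05), whereas DESeq2 called 1410 (859 higher and 551 lower), which included 673 of the 690 genes of the 697 that this smaller fit tested. In the full design DESeq2 called 3059 of 16407 genes (18.6%, with 11.3% higher and 7.36% lower), 39.5% of them lower, against 58.7% lower in edgeR, and voom called 782 (4.73%, with 1.75% higher and 2.98% lower). List counts by DESeq2 and voom are to be read against these shares. Of the 697, 57 passed in each of the 10 fits that left out 1 library, 53 of them lower and 4 higher at the high dose. These 57 include Ccl2, Ccl7, Ccl12, Ccr1, Ccr2, Cx3cr1, Itgam, Cd14, Mrc1, Gpr84, Trem1, Ch25h, Clec5a, Slamf9, Siglec1 and Siglece among the falls, and Vegfa, Egln3 and the pseudogene Olfr1372-ps1 among the rises.

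The vehicle level lay between the doses for most genes that passed. It did so for 360 of the 409 falls (88%) and 211 of the 288 rises (73.3%). These genes were selected for a difference between the doses, which by itself favors a vehicle level between them. No share over all tested genes was set beside the 88% and 73.3%, so both are a description and not a result about dose direction. A gene was called opposed where the doses departed from vehicle in opposite directions by at least 0.5 on the log2 scale each, and strictly opposed where in addition no library of either dose reached into the vehicle range. Over all tested genes 675 (4.08%) were opposed, 412 (2.49%) above and 263 (1.59%) below vehicle at the high dose. Among the 697, 245 were opposed, and 128 strictly so. Of these 128, 115 were above vehicle at the low dose and below it at the high dose, and 13 the reverse. Over all tested genes the strict pattern held for 119 (0.72%) and 15 (0.0908%) genes in these directions. Both doses were set against the same vehicle libraries, so these counts are a description. Without low dose replicate 1 or 2 the strict count among called genes was 34 and 56, and without high dose replicate 2 it was 202.

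**Figure D1:**
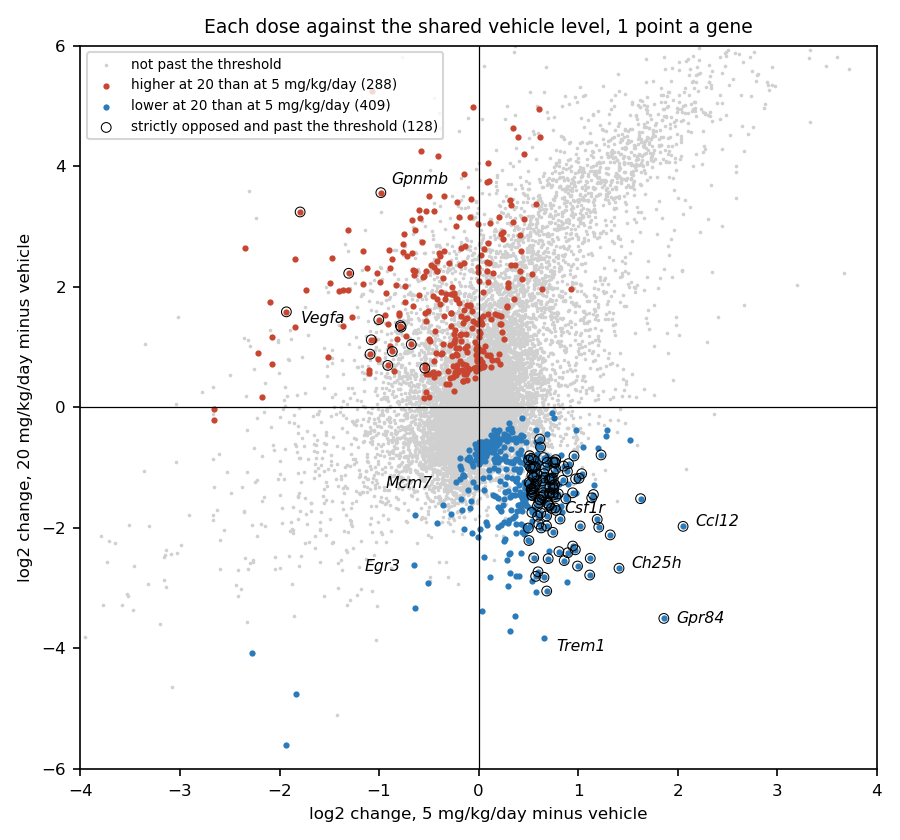
Log2 change of each tested gene against vehicle at 5 mg/kg/day (horizontal axis) and at 20 mg/kg/day (vertical axis). Red and blue points are the 288 and 409 genes that were higher and lower at 20 than at 5 mg/kg/day, rings mark the 128 strictly opposed genes among them, and 72 genes lie outside the axes. The rings crowd the lower right quadrant, above vehicle at the low dose and below it at the high dose.

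Macrophage genes were the list with the largest share of calls among the 32 lists. Of 26 tested members of the macrophage list, 15 were lower and 0 higher at the high dose (57.7% called, against 4.22% of all genes), and the median log2 change was -1.99, against 0.07 over all tested genes. Members that did not pass included Clec4f (log2 change 0.30) and Vsig4 (0.59), markers of Kupffer cells, the resident macrophages of liver, and Apoe (0.74), which hepatocytes also make, all named after their values were seen. These 3 turned to -1.79, -1.22 and -0.45 without high dose replicate 1, the library with the highest hepatocyte level, and to -2.37, -1.93 and -0.45 with the hepatocyte level as a covariate, where Clec4f passed the threshold (adjusted p 0.0144). Strict opposition held for 13 members. Without low dose replicate 1 or 2, 6 and 7 members passed.

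Csf1r, the receptor for the macrophage survival factor and itself a regorafenib target, stood at 879, 874 and 673 CPM in low dose replicates 1 to 3, at 304 to 610 CPM in vehicle and at 108, 233 and 116 CPM in high dose replicates 1 to 3. The 3 groups did not overlap, and the highest high dose library lay below the lowest vehicle library. The log2 change between doses was -2.41 (SE 0.36, adjusted p 0.0129), and it missed the threshold without low dose replicate 1 or 2 (adjusted p up to 0.0676). Adgre1, which encodes the macrophage surface protein F4/80, had 248, 205 and 192 CPM at the low dose, 87.5 to 156 CPM in vehicle and 30.5, 78.8 and 45.9 CPM at the high dose. C1qa, a complement component made by tissue macrophages, ran from 946 to 1034 CPM at the low dose, from 386 to 759 CPM in vehicle and from 127 to 328 CPM at the high dose. Both fell, by 2.06 (SE 0.34) and 2.20 (SE 0.36) on the log2 scale, with adjusted p 0.0188 and 0.0179, and both missed the threshold without low dose replicate 1 or 2 (adjusted p up to 0.101 and 0.0866). Cd68, a lysosomal marker, was at -1.12 (SE 0.28, adjusted p 0.0588) and did not pass.

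Of the 15 called members 6 passed in every fit that left out 1 library, among them Cx3cr1, Itgam, Mrc1 and Cd14. Cx3cr1, the fractalkine receptor of monocytes and macrophages, was at 402, 434 and 308 CPM at the low dose and 27.1, 64.6 and 32.0 CPM at the high dose. The vehicle libraries, at 174 to 292 CPM, lay between them without overlap. Its log2 change was -3.21 (SE 0.36, adjusted p 0.00535). Itgam, the CD11b integrin chain, was at 97.6 CPM or more in each low dose library, 53.03 to 79.5 CPM in vehicle and 4.58, 15.2 and 9.80 CPM at the high dose, a log2 change of -3.38 (SE 0.38, adjusted p 0.00543). Mrc1, the mannose receptor used as an M2 marker, was at 300 to 404 CPM at the low dose, 165 to 201 CPM in vehicle and 49.6, 104 and 50.5 CPM at the high dose, a log2 change of -2.36 (SE 0.29, adjusted p 0.00677). Cd14, the lipopolysaccharide co-receptor, fell by 1.75 on the log2 scale (SE 0.20, adjusted p 0.00546). In Csf1r, Adgre1, C1qa, Cx3cr1, Itgam and Mrc1 the highest high dose library was replicate 2, and in Cd14 it was replicate 3 (43.7 against 42.0 CPM). The lowest was high dose replicate 1 in all 7, whereas the level of the whole list (mean log2 CPM) was lowest in high dose replicate 3, at 5.12, 5.76 and 4.395 in replicates 1 to 3 against 6.44 to 6.92 at the low dose. With the hepatocyte level as a covariate 16 members of the list passed.

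**Figure D2:**
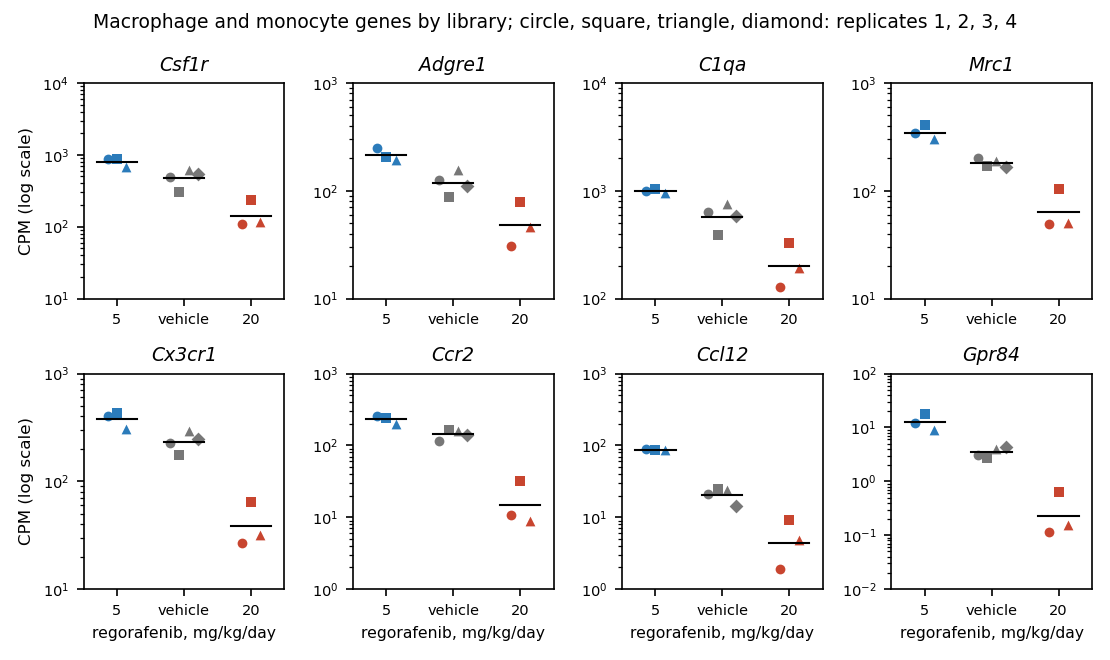
CPM on a log axis of 8 macrophage and monocyte genes in each library of the 5 mg/kg/day, vehicle and 20 mg/kg/day groups. Symbols stand for replicates and bars for the mean of log2 CPM. In each panel all 3 low dose libraries lie above, and all 3 high dose libraries below, the 4 vehicle libraries.

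The promoters of the genes that fell were searched for the binding letters of PU.1, the Ets factor encoded by Spi1 that is required for macrophage development. Spi1 RNA itself fell by 2.004 on the log2 scale (adjusted p 0.012, and no longer called, at up to 0.0676, without low dose replicate 1 or 2), and it is named here after its value was seen. The letters GAGGAAGT were likewise chosen after the macrophage genes had been seen among the falls, and were read on both strands in RefSeq windows (GRCm38.p6) from 250 bases before to 50 bases after each start. Shares are of genes with a window, and a gene with more than 1 window counted once. The letters were found for 38 of 308 genes lower at the high dose (12.3%) and 6 of 197 genes higher at the high dose (3.05%). Among tested genes it was 448 of 11593 (3.86%), and among all genes with a window 3.69%. None of the 41 matches among the falls overlapped a match of another motif searched. Within the macrophage list itself 1 of 19 genes with a window held the letters (5.26%), and Csf1r had no entry. A match is a description of letters and not of a bound site. The following 4 stretches of 80 bases upstream of the start of genes that fell show the letters in capitals, in either orientation, and were picked after their values were seen. Ctsc encodes a lysosomal protease, Cd72 an inhibitory lectin, Havcr2 the checkpoint receptor TIM-3 and Vav1 a hematopoietic exchange factor.
Ctsc, chr7:88277898-88277977, plus strand: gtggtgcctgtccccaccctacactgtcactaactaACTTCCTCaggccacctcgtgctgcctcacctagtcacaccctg
Cd72, chr4:43454632-43454711, minus strand: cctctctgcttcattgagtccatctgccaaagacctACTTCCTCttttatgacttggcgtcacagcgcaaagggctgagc
Havcr2, chr11:46454851-46454930, plus strand: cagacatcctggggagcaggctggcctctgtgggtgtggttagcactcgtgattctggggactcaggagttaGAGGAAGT
Vav1, chr17:57279020-57279099, plus strand: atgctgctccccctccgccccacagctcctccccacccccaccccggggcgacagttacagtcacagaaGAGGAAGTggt
The log2 changes of these genes between doses were -2.46 for Ctsc, -2.49 for Cd72, -2.18 for Havcr2 and -1.76 for Vav1. Ctsc passed in every fit that left out 1 library. Cd72 missed the threshold without low dose replicate 1, Havcr2 without low dose replicate 1 or 2 and Vav1 without any 1 vehicle or low dose library (adjusted p up to 0.0505, 0.0686 and 0.16).

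The Ccr2 ligands Ccl2, Ccl7 and Ccl12 and the receptors Ccr2 and Ccr1 fell, while the other 12 tested genes of the list did not pass. Of 17 tested genes of monocyte and neutrophil chemokines and receptors, 5 were lower and 0 higher (29.4% called, 2.48% of all genes were lower), with a list median of -0.13, and these 5 passed in each fit that left out 1 library. All 5 were strictly opposed. The ligands Ccl2, Ccl7 and Ccl12 lie in 1 cluster on chromosome 11 (GRCm38, 82035571 to 82037453, 82045712 to 82047525 and 82101845 to 82103400, plus strand). Ccl12 was at 89.6, 87.6 and 85.0 CPM at the low dose, 14.5 to 24.9 CPM in vehicle and 1.92, 9.16 and 4.86 CPM at the high dose. The low dose libraries were within 5 CPM of each other and all above vehicle, and the log2 change between doses was -4.03 (SE 0.49, adjusted p 0.00677). Ccl7 was at 22.1, 18.0 and 26.2 CPM at the low dose, 5.32 to 9.08 CPM in vehicle and 1.58, 4.07 and 1.80 CPM at the high dose, a log2 change of -3.14 (SE 0.40, adjusted p 0.00767). Ccl2, the main ligand of Ccr2, was at 68.9, 41.6 and 44.6 CPM at the low dose, 18.3 to 28.7 CPM in vehicle and 10.4, 13.5 and 14.3 CPM at the high dose, a log2 change of -2.02 (SE 0.26, adjusted p 0.00781).

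The receptor genes Ccr2 and Ccr1, both on chromosome 9 (124101950 to 124113557 and 123962124 to 123968692), showed the same order of groups. Ccr2, which marks inflammatory monocytes, was at 253, 244 and 197 CPM at the low dose, 115 to 163 CPM in vehicle and 10.9, 32.5 and 8.82 CPM at the high dose. That is a 13.3-fold lower fitted level at the high dose (log2 change -3.73, SE 0.47, adjusted p 0.00775). Ccr1, the receptor for Ccl3 and related ligands, was at 110, 108 and 88.9 CPM at the low dose and 4.70, 15.1 and 10.7 CPM at the high dose (log2 change -3.33, SE 0.36, adjusted p 0.00492). Members that did not pass included Ccl8 at 1.61 (adjusted p 0.162) and Cxcl3 at 3.41 (adjusted p 0.248), both named after their values were seen. Of 18 tested neutrophil genes Trem1 passed in edgeR (5.56% called, near the 4.22% of all genes, and 1 lower and 1 higher in DESeq2), and Ly6g was too low to be tested.

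Most myeloid inflammation genes that passed were lower at the high dose. Of 28 tested myeloid inflammation genes, 6 were lower and 1 was higher (25% called, against 4.22% of all genes), with a median log2 change of -0.36. Gpr84, a receptor for medium-chain fatty acids induced in activated macrophages (chromosome 15, 103308235 to 103310612, minus strand), had 343, 511 and 226 reads in low dose replicates 1 to 3 and 2, 17 and 4 reads in high dose replicates 1 to 3. Its CPM was 11.98, 17.8 and 8.87 at the low dose, 2.74 to 4.37 in vehicle and 0.113, 0.623 and 0.157 at the high dose. The log2 change of -5.36 (SE 0.62, adjusted p 0.00546) rests on 1 library with fewer than 3 reads, so its size at the high dose is imprecise. Trem1, an amplifier of inflammatory signals on myeloid cells, was at 12.7, 11.1 and 9.14 CPM at the low dose and 0.340, 0.403 and 0.706 CPM at the high dose (log2 change -4.48, SE 0.44, adjusted p 0.00464). The vehicle libraries of Trem1, at 4.66 to 11.2 CPM, overlapped those of the low dose, so it was not strictly opposed. Ch25h, the enzyme that makes 25-hydroxycholesterol, was at 52.2, 38.5 and 39.8 CPM at the low dose, 13.0 to 19.9 CPM in vehicle and 1.58, 4.11 and 1.96 CPM at the high dose. Its 3 groups were apart, with a log2 change of -4.08 (SE 0.38, adjusted p 0.00457). Clec5a, a myeloid lectin, fell by 3.63 (SE 0.35, adjusted p 0.00464).

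Nos2, the inducible nitric oxide synthase often used as an M1 marker, went the other way. It was at 1.29, 1.78 and 2.04 CPM at the low dose, 3.93 to 12.1 CPM in vehicle and 17.1, 8.21 and 10.2 CPM at the high dose. The doses did not overlap (log2 change 2.79, SE 0.51, adjusted p 0.0249), but the gene missed the threshold without any 1 of the 3 low dose libraries (adjusted p up to 0.126). Among cytokine genes, Il1b fell by 3.07 on the log2 scale (adjusted p 0.00677) and passed in every fit that left out 1 library, and the inflammasome sensor gene Nlrp3 fell by 2.24 (adjusted p 0.00783) but missed the threshold without low dose replicate 1 (adjusted p 0.0529). Both are named after their values were seen. The cytokine genes Tnf, at -0.61 (SE 0.35, adjusted p 0.259), and Il6, at 0.89 (SE 0.85, adjusted p 0.486), did not pass. Il6 was at 1.21 CPM or less in all 6 libraries of both doses.

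Other large falls included genes of cell surface receptors. Slamf9, a member of the SLAM receptor family, was at 52.6, 38.7 and 43.6 CPM at the low dose, 23.6 to 35.5 CPM in vehicle and 2.21, 6.23 and 3.61 CPM at the high dose (log2 change -3.48, SE 0.36, adjusted p 0.00487). The sialic acid receptors Siglece (-3.63, SE 0.47) and Siglec1 (-3.44, SE 0.47), the latter a macrophage gene also known as CD169, had adjusted p 0.00783 and 0.00891 and were strictly opposed as well. Siglec1 was at 168, 155 and 129 CPM at the low dose and 13.1, 22.4 and 6.19 CPM at the high dose. Fcrls, an Fc receptor-like gene, was at 179 to 313 CPM at the low dose and 6.17 to 31.8 CPM at the high dose (log2 change -3.40, SE 0.54, adjusted p 0.0168), and missed the threshold without low dose replicate 1 or 2 (adjusted p up to 0.0748). The lectin receptor genes Klra2 (-3.41) and Klrb1b (-3.79) also fell, members of a multigene family between whose copies reads can be misassigned, and Klrb1b did not pass without low dose replicate 1 (adjusted p 0.079).

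Members of both polarization lists fell. The study took its 2 lists from the literature. Of 48 tested genes of the M1 list, which M1 macrophages express above M2 macrophages, 7 were lower and 0 higher at the high dose (14.6% called, against 4.22% of all genes), with a median log2 change of -0.52. Of 30 tested genes of the M2 list, its counterpart, 3 were lower and 1 was higher (13.3% called), with a median of -0.34. DESeq2 called 16 lower and 1 higher of the M1 list and 5 lower and 4 higher of the M2 list. The falls included Fpr2 (-3.20, adjusted p 0.00625), a formyl peptide receptor, and Tlr2 (-1.83, adjusted p 0.00891) of the M1 list and Mrc1 of the M2 list. Tlr2 missed the threshold without low dose replicate 1 (adjusted p 0.0676). Mmp12, macrophage elastase and also on the M2 list, rose, from 2.90, 1.605 and 4.002 CPM at the low dose to 36.6, 20.9 and 23.3 CPM at the high dose (log2 change 3.25, SE 0.57, adjusted p 0.0227). It did not pass without low dose replicate 1 or 2 (adjusted p up to 0.118). The difference between the lists was not tested.

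Class II pathway and checkpoint genes that passed in edgeR were lower at the high dose. Of 12 tested MHC class II pathway genes, 2 were lower, Ctss (-2.13, SE 0.31, adjusted p 0.0122), the protease that trims the invariant chain, and H2-DMa (-1.71, SE 0.31, adjusted p 0.0239), a peptide-loading chain, and the list median was -1.09 (16.7% called, against 4.22% of all genes, and 5 lower in DESeq2). Of 18 tested MHC class I pathway genes 0 passed in edgeR, DESeq2 or voom (1 at an unadjusted p under 0.05 in edgeR), with a median of -0.06. Of 13 tested checkpoint genes, 2 were lower, Havcr2 (adjusted p 0.0146) and the costimulator Cd86 (-1.79, adjusted p 0.0199), which is 15.4% called. DESeq2 called 3 checkpoint genes lower and 3 higher. Cd274, which encodes PD-L1, was at 3.14 to 5.77 CPM at the low dose and 12.2, 14.3 and 8.07 CPM at the high dose, without overlap, and did not pass in edgeR (log2 change 1.45, SE 0.37, adjusted p 0.0612) but did in DESeq2 and voom (adjusted p 0.00216 and 0.0482). The 4 genes named as lower missed the threshold without low dose replicate 1 or 2, and H2-DMa also without low dose replicate 3 (adjusted p up to 0.108).

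T cell, cytotoxic and NK cell genes gave no calls in edgeR. Of 25 tested T cell genes and 17 cytotoxic and NK cell genes, 0 passed in edgeR (3 and 1 at an unadjusted p under 0.05) or in voom, and 2 and 0 passed in DESeq2. Cd8a was at 5.34, 3.91 and 4.51 CPM at the low dose and 4.98, 9.02 and 5.29 CPM at the high dose (log2 change 0.49, 95% interval -0.55 to 1.52). Cd4 was at 1.22 to 3.14 CPM and 1.61 to 8.17 CPM (1.21, interval -0.13 to 2.54), and Gzmb, a cytotoxic granule protease, at 4.16 to 5.81 CPM and 1.53 to 2.08 CPM (-1.41, interval -2.60 to -0.21, adjusted p 0.13). The doses did not overlap for Gzmb, but its adjusted p missed the threshold. Of 12 tested T cell attracting chemokine and receptor genes, 2 were lower (16.7% called, against 4.22% of all genes), among them the ligand Cxcl16 (-1.39, adjusted p 0.0286). Cxcl16 did not pass without any 1 of low dose replicates 1 to 3 or vehicle replicates 1, 3 and 4 (adjusted p up to 0.147). Cxcl9, an interferon-induced ligand of T cells, was at -0.42 (SE 0.50, adjusted p 0.583). Of 34 tested interferon-stimulated genes, 2 were lower (5.88% called, near the 4.22% of all genes), Oas1a (-1.14) and Isg15 (-0.83), the second with adjusted p 0.0498 and lost in 9 of the 10 fits that left out 1 library, and Oas1a without any 1 low dose library (adjusted p up to 0.174 and 0.118).

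Hypoxia targets were the list with the most rises. Of 27 tested hypoxia and glycolysis genes, 8 were higher and 0 lower at the high dose (29.6% called, against 1.74% of all genes higher), with a median log2 change of 0.77. The 8 were Vegfa, Egln3, Bnip3, Adm, P4ha2, Ero1l, Ndrg1 and Pdk1, the last 3 named to complete the count, with log2 changes of 1.92, 1.67 and 1.33. They act in angiogenesis, oxygen sensing, mitophagy, collagen and protein folding and the block on pyruvate entry to mitochondria. The other 19 members did not pass in edgeR, among them the glycolysis genes Eno1 at 0.19, Gapdh at 0.45, Pgk1 at 0.59, Ldha at 0.66, Slc2a1 at 0.89, Aldoc at 1.62 and Pfkfb4 at -1.29 on the log2 scale, each named after its value was seen. DESeq2 called 15 members higher, including Ldha, Slc2a1 and Aldoc, and 1 lower, Pfkfb4. Only Vegfa and Egln3 passed in every fit that left out 1 library, and 2 members passed without low dose replicate 1 or 2. Ero1l, Ndrg1 and Pdk1 lost the call in 6, 7 and 7 of these 10 fits, among them those without low dose replicate 1, 2 or vehicle replicate 1, 3 or 4 (adjusted p up to 0.188).

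Vegfa (chromosome 17, 46016993 to 46032369, minus strand), the main ligand of VEGFR2, was at 60.3, 59.7 and 78.7 CPM at the low dose, 124 to 166 CPM in vehicle and 356, 253 and 303 CPM at the high dose. The 3 groups were apart, with vehicle in the middle. The log2 change between doses was 2.20 (SE 0.19, adjusted p 0.00396), a 4.59-fold higher level, and it had the smallest p of all rises. Egln3 (chromosome 12, 54178981 to 54203860, minus strand), a hydroxylase that marks hypoxia-inducible factors for degradation and is induced by them, was at 5.83, 9.07 and 10.04 CPM at the low dose, 8.31 to 15.2 CPM in vehicle and 45.0, 39.1 and 41.9 CPM at the high dose (log2 change 2.34, SE 0.28, adjusted p 0.00677). The high dose libraries overlapped neither other group. Bnip3, a mitophagy receptor, was at 120, 104 and 191 CPM at the low dose, 216 to 283 CPM in vehicle and 420, 375 and 643 CPM at the high dose (log2 change 1.79, SE 0.28, adjusted p 0.0157). Adm, the vasodilator peptide adrenomedullin, rose from 4.396 to 13.5 CPM at the low dose to 36.8, 49.6 and 84.8 CPM at the high dose (2.78, SE 0.44, adjusted p 0.0167). P4ha2, a collagen prolyl hydroxylase, was strictly opposed with 46.7, 79.4 and 151 CPM at the high dose (2.11, SE 0.40, adjusted p 0.0285). Bnip3, Adm and P4ha2 missed the threshold without low dose replicate 1 or 2 (adjusted p up to 0.108, 0.108 and 0.155), and P4ha2 also without any 1 vehicle library. High dose replicate 3 had the highest level of Bnip3, Adm and P4ha2.

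The core letters of the hypoxia response element, ACGTG, were also chosen after these values were seen. Counted by gene as above, they occurred for 18 of 24 genes of the hypoxia and glycolysis list (75%) and 52 of 197 genes higher at the high dose (26.4%). The shares were 56 of 308 genes lower at the high dose (18.2%) and 28.1% of tested genes. The rises as a whole thus held them no more often than tested genes did. The following stretches from 3 rises of the list show the letters in capitals, with those of Bnip3 reading the same on both strands as part of CACGTG.
Bnip3, chr7:138909572-138909651, minus strand: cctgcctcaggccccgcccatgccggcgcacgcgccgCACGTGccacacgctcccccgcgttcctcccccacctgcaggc
Egln3, chr12:54204045-54204124, minus strand: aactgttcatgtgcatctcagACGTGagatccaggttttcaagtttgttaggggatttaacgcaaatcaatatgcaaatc
P4ha2, chr11:54100808-54100887, plus strand: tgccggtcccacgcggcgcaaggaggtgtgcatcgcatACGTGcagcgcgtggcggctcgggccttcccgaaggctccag
Of the other motifs searched, the interferon-stimulated response element was found for 16 of 25 genes of the interferon list (64%) and 3.77% of tested genes. It was found for 5.08% of the rises and 6.82% of the falls with a window.

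Strictly opposed rises outside the hypoxia list included Gpnmb, a glycoprotein of lysosomes, Bicc1, an RNA-binding protein, Shc2, a signaling adaptor, and Gm16439, with log2 changes of 4.54, 2.46, 1.97 and 1.61. Gpnmb was at 1.57, 1.53 and 1.14 CPM at the low dose, 2.62 to 3.16 CPM in vehicle and 52.5, 38.5 and 8.39 CPM at the high dose (SE 0.60, adjusted p 0.00785). These 4 lost the call without low dose replicate 1 or 2 (adjusted p up to 0.051, 0.0986, 0.106 and 0.185), Shc2 also without low dose replicate 3, and Gm16439 without any 1 vehicle library or high dose replicate 1 or 2.

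**Figure D3:**
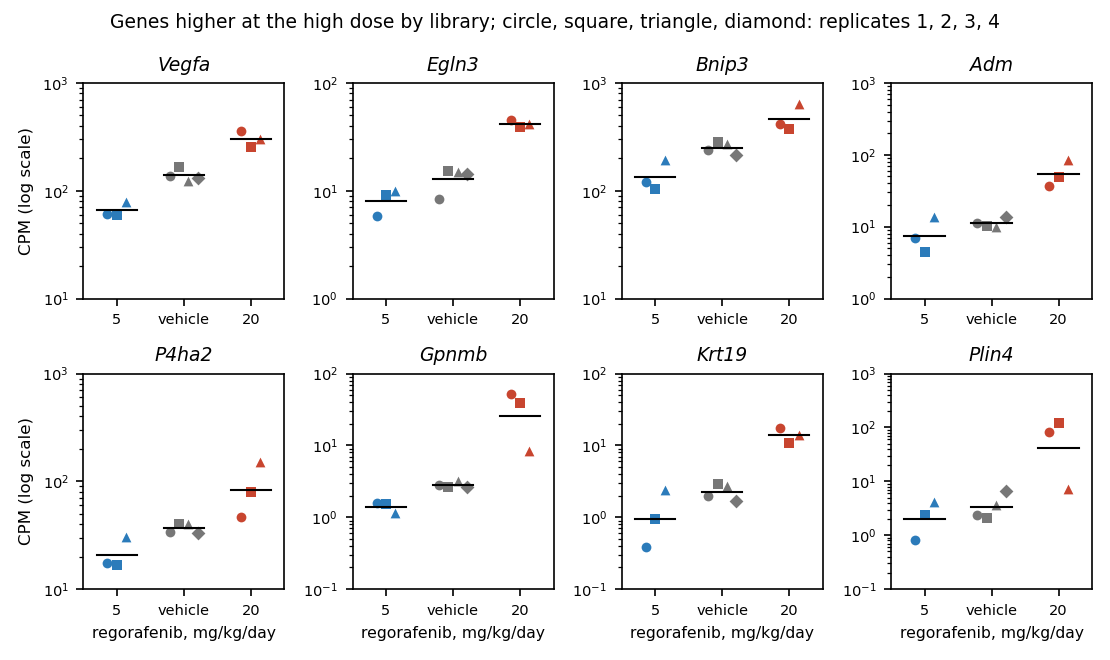
CPM on a log axis of 8 genes that were higher at the high dose, in each library of the 5 mg/kg/day, vehicle and 20 mg/kg/day groups. Symbols stand for replicates and bars for the mean of log2 CPM. The high dose libraries lie close together for Vegfa and Egln3 and far apart for Plin4, at 82.5, 120 and 7.17 CPM.

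The rises of greatest size were uneven between the high dose libraries. Plin4, a lipid droplet coat protein, was at 0.803, 2.41 and 4.16 CPM at the low dose and 82.5, 120 and 7.17 CPM at the high dose (log2 change 4.83, SE 1.04, adjusted p 0.0416). Itih5 was at 23.4, 59.7 and 2.82 CPM at the high dose (4.29, SE 1.02), the chloride channel Ano1 at 14.8, 48.9 and 3.29 CPM (3.96, SE 0.92), Wt1, a transcription factor of mesothelial cells, at 12.3, 46.8 and 4.08 CPM (3.70, SE 0.82), and Adamts15 at 8.09, 41.6 and 3.84 CPM (3.65, SE 0.85). In all of these high dose replicate 2 was highest and replicate 3 lowest. These 5 genes had adjusted p between 0.0416 and 0.0498, and in each the call was lost without any 1 vehicle or low dose library or without high dose replicate 2 (adjusted p up to 0.218). Without high dose replicate 1 the first 3 also lost it. Gpc3, glypican 3 (3.35, SE 0.71, adjusted p 0.0387), was at 4.92, 22.3 and 5.84 CPM and was lost without any 1 vehicle or low dose library or high dose replicate 2 (adjusted p up to 0.165). A2m, a protease inhibitor of plasma, was steadier at 24.1, 28.9 and 17.1 CPM at the high dose against 0.524 to 2.39 CPM at the low dose (3.86, SE 0.52, adjusted p 0.00891), and missed the threshold only without low dose replicate 2 (adjusted p 0.0504). Sned1, a matrix protein, was at 36.3, 67.9 and 11.4 CPM at the high dose (3.75, SE 0.62, adjusted p 0.0184). Cdh6, a cadherin, was at 1.01, 0.558 and 1.45 CPM at the low dose, 5.10 to 7.71 CPM in vehicle and 7.30, 4.18 and 7.21 CPM at the high dose. Its low dose libraries were below both other groups, which overlapped (2.62, SE 0.40, adjusted p 0.0147). Sned1 and Cdh6 lost the call without low dose replicate 1 or 2 (adjusted p up to 0.108 and 0.0876).

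The bile duct keratins Krt19 and Krt7 rose, while Krt8 and Krt18, keratins of simple epithelium, did not pass. Of 13 tested bile duct and epithelial tumor cell genes, 3 were higher and 0 lower (23.1% called, against 1.74% of all genes higher), with a median log2 change of 2.10, and DESeq2 called 9 higher. Krt19 was at 0.384, 0.942 and 2.39 CPM at the low dose, 1.67 to 2.91 CPM in vehicle and 17.3, 10.96 and 14.03 CPM at the high dose (log2 change 3.51, SE 0.59, adjusted p 0.0199). Krt7 was at 1.05 to 1.605 CPM at the low dose and 11.1, 6.78 and 6.27 CPM at the high dose (2.54, SE 0.40, adjusted p 0.0168). Both were highest in high dose replicate 1, the library with the highest hepatocyte level. Both also passed with the hepatocyte level as a covariate, and the part of liver content in these values was not tested further. Both missed the threshold without low dose replicate 1 or 2 (adjusted p up to 0.106 and 0.0925). The transcription factor Onecut2 was called at adjusted p 0.0472 and lost in 8 of the 10 fits that left out 1 library (adjusted p up to 0.198). Krt8 (1.82, adjusted p 0.198), Krt18 (1.84, adjusted p 0.237) and Epcam (2.78, adjusted p 0.0926) did not pass in edgeR, and Epcam did in DESeq2 (adjusted p 0.00705).

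All 30 tested proliferation genes had a negative log2 change, and how many passed depended on the tool. In edgeR 3 were lower (10% called, against 2.48% of all genes lower), in voom 4 (against 2.98% of all genes) and in DESeq2 19 (against 7.36% of all genes). In edgeR 27 were lower at an unadjusted p under 0.05, and in 27 all 3 high dose libraries were below all 3 low dose libraries, a pattern that 16.2% of all genes showed. The median log2 change was -1.22. Mcm7, a subunit of the replication helicase, was at 121, 150 and 114 CPM at the low dose, 136 to 161 CPM in vehicle and 44.8, 63.2 and 81.9 CPM at the high dose (-1.02, SE 0.21, adjusted p 0.0375). Cdt1, a licensing factor (-1.18, adjusted p 0.0427), and Tyms, thymidylate synthase (-0.90, adjusted p 0.0457), were the others, whereas Mki67 (-0.82, SE 0.49, adjusted p 0.268) and Pcna (-1.01, SE 0.25, adjusted p 0.0545) did not pass. The 3 calls were lost without any 1 vehicle or low dose library or high dose replicate 2, and that of Tyms also without high dose replicate 1 (adjusted p up to 0.188). The level of the list (mean log2 CPM) was 4.23, 5.61 and 6.13 in high dose replicates 1 to 3, against 6.43 to 6.91 at the low dose and 6.67 to 6.92 in vehicle. Among the high dose libraries it was lowest where the hepatocyte level was highest, and the part of liver content in this order was not tested.

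ERK pathway outputs were mixed. Of 24 tested ERK feedback and immediate early genes, 4 were lower and 1 was higher (20.8% called, against 4.22% of all genes). Etv5, an Ets factor induced by receptor tyrosine kinases, was at 97.0, 99.9 and 69.6 CPM at the low dose and 13.8, 26.5 and 35.0 CPM at the high dose (-1.82, SE 0.31, adjusted p 0.0199). Dusp6, the ERK phosphatase (-1.15, adjusted p 0.0305), and Egr3 (-1.97, adjusted p 0.0307) also fell, and Ier3, a survival gene, rose (1.56, adjusted p 0.019). Etv5 and Ier3 lost the call without low dose replicate 1 or 2, and Dusp6 and Egr3 in 7 of the 10 fits that left out 1 library (adjusted p up to 0.141 over the 4 genes). Egr1, the classical immediate early gene, did not differ between the doses by more than its spread, at 45.2, 34.0 and 52.8 CPM at the low dose and 54.7, 38.4 and 42.3 CPM at the high dose (0.04, interval -0.39 to 0.46), and both were below the 99.1 to 119.5 CPM of vehicle. RNA of Mapk14, Creb1 and Klf4, genes of the p38 axis that the study examined in macrophages, was not called. Mapk14 was at 0.07 (interval -0.25 to 0.39), Creb1 at -0.29 (interval -0.73 to 0.14) and Klf4 at 0.78 (interval -0.11 to 1.67). The study measured p38 and Creb1 phosphorylation and Klf4 and Ccl7 expression in cultured macrophages with and without regorafenib. Whole tumor RNA at 2 doses is a different measure and does not bear on that result. Ccl7 was called lower at the high dose (-3.14, adjusted p 0.00767).

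Among target kinase and vessel genes, Csf1r, Adm and Ndufa4l2 passed in edgeR, 1 member from each of 3 lists, where 4.22% of all genes passed. Of 16 tested regorafenib target kinase genes, Csf1r passed (6.25% called), and the median log2 change was 0.02. Of 24 tested endothelial identity genes 0 passed in edgeR (6 at an unadjusted p under 0.05) or voom and 3 in DESeq2, with a median of 0.63. Kdr, which encodes VEGFR2, was at 27.5, 27.6 and 38.1 CPM at the low dose and 43.9, 46.0 and 8.35 CPM at the high dose (0.08, interval -1.15 to 1.30), and its direction turned under several alternatives. Cldn5, a tight junction protein of endothelium, was at 2.38 to 3.69 CPM at the low dose and 1.06 to 4.54 CPM at the high dose (-0.04, interval -1.03 to 0.95), both below the 9.999 to 11.7 CPM of vehicle. Pecam1, the CD31 gene, was at 31.8 to 36.0 CPM and 20.6 to 136.5 CPM (0.93, interval -0.38 to 2.23). Of 18 tested endothelial tip and sprouting genes Adm was called in edgeR (5.56% called, DESeq2 called 2 higher and 1 lower), and Esm1 (-0.72) and Angpt2 (0.56) did not pass. Stc1, a member of the hypoxia and glycolysis list, did not pass either (-0.51). Tmem255a was at 16.4 CPM in high dose replicate 2 and at 0.118 to 1.13 CPM in the other 5 libraries of both doses (3.43, SE 1.31, adjusted p 0.133). Ndufa4l2, listed among pericyte genes and also a hypoxia target, was at 1.68, 3.04 and 4.32 CPM at the low dose and 15.8, 15.2 and 13.4 CPM at the high dose (2.30, SE 0.38, adjusted p 0.0184). It missed the threshold without low dose replicate 1 or 2 (adjusted p up to 0.0931), and the other 12 tested pericyte and smooth muscle genes did not pass in edgeR (7.69% called over the 13), whereas DESeq2 called 4 of the 13 higher.

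Several lists had medians above 1 and no calls, among them hepatocyte and B cell genes, whose levels differed between the high dose libraries. Of 40 tested hepatocyte genes 0 passed in edgeR (2 at an unadjusted p under 0.05) or voom and 1 in DESeq2, with a median of 2.43. Alb, the major hepatocyte product, was at 1220, 1030 and 10750 CPM at the low dose and 27940, 7037 and 1673 CPM at the high dose, so the doses overlapped (1.495, SE 1.12, adjusted p 0.374). Of 19 tested B cell and plasma cell genes 0 passed in edgeR (12 at an unadjusted p under 0.05) or voom and 8 in DESeq2, with a median of 2.79. Jchain, the joining chain of secreted antibodies, was at 35.6, 436 and 0.627 CPM in high dose replicates 1 to 3 and at 1.29, 4.67 and 1.57 CPM at the low dose (5.96, SE 1.79, adjusted p 0.0881). Ighg1 was at 43.8, 177 and 0.353 CPM at the high dose (5.62, SE 1.57, adjusted p 0.0764). High dose replicate 3 thus held fewer of these transcripts than any low dose library. Of the acute phase and complement (25), mitochondrially encoded (10), fibroblast and matrix (22), dendritic cell (16), erythrocyte (8), cholesterol synthesis (22), p53 target (18) and IL-6 signature (15) genes tested, 0 passed in edgeR (2, 5, 4, 3, 0, 2, 4 and 2 at an unadjusted p under 0.05) or voom, and 1, 1, 3, 2, 0, 0, 4 and 0 passed in DESeq2. Of 26 tested stress and unfolded protein response genes Vldlr, a lipoprotein receptor, was called in edgeR (3.85% called, near the 4.22% of all genes, log2 change 1.96, SE 0.43, adjusted p 0.0419), and it was lost in 6 of the 10 fits that left out 1 library (adjusted p up to 0.172). DESeq2 called 4 of these 26 higher and 5 lower.

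**Figure D4:**
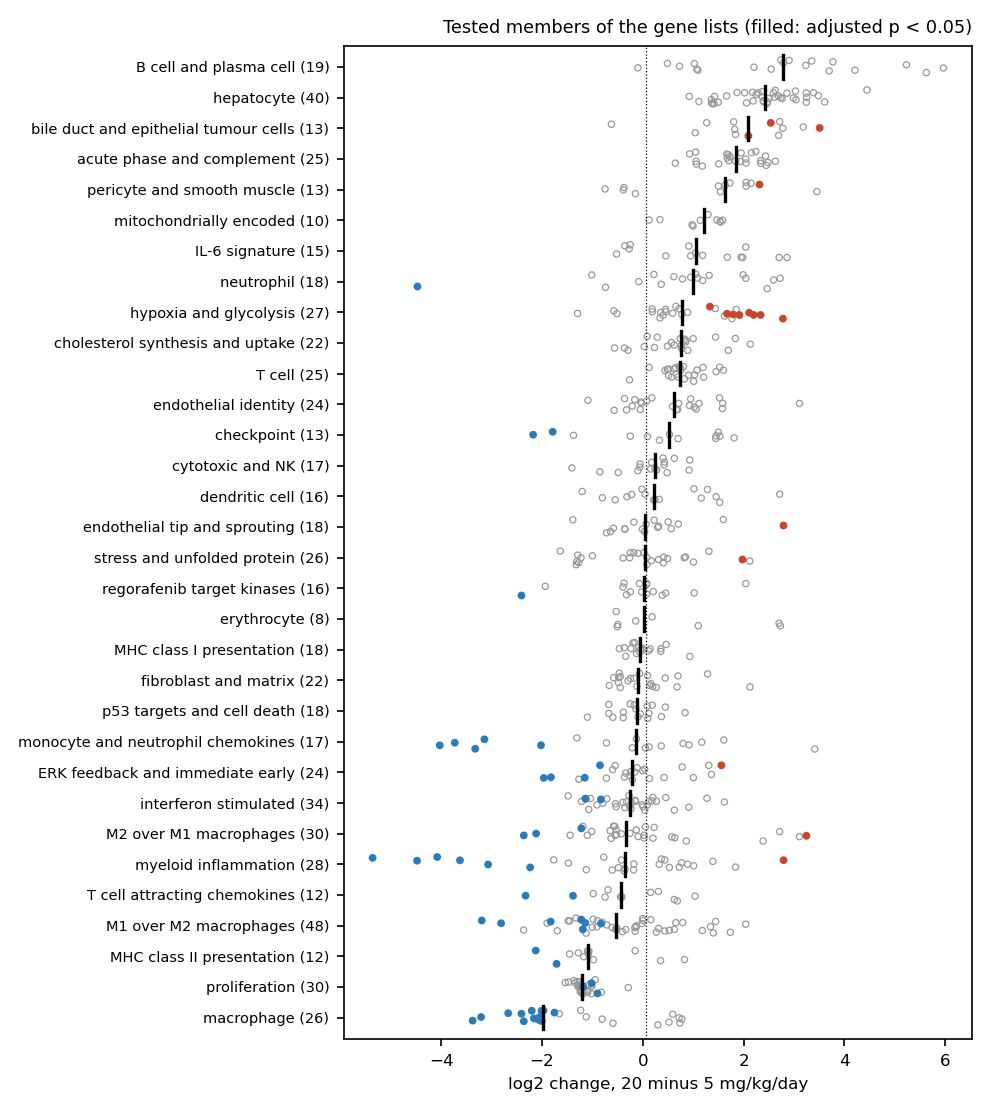
Log2 change between 20 and 5 mg/kg/day of the tested members of 32 gene lists, 1 point a gene, with the number of members in brackets. Filled points passed the threshold, black bars are list medians and the dotted line is the median of all tested genes. Macrophage genes lie at the lower end with 15 filled points, and B cell and hepatocyte genes at the upper end with none.

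**Figure D5:**
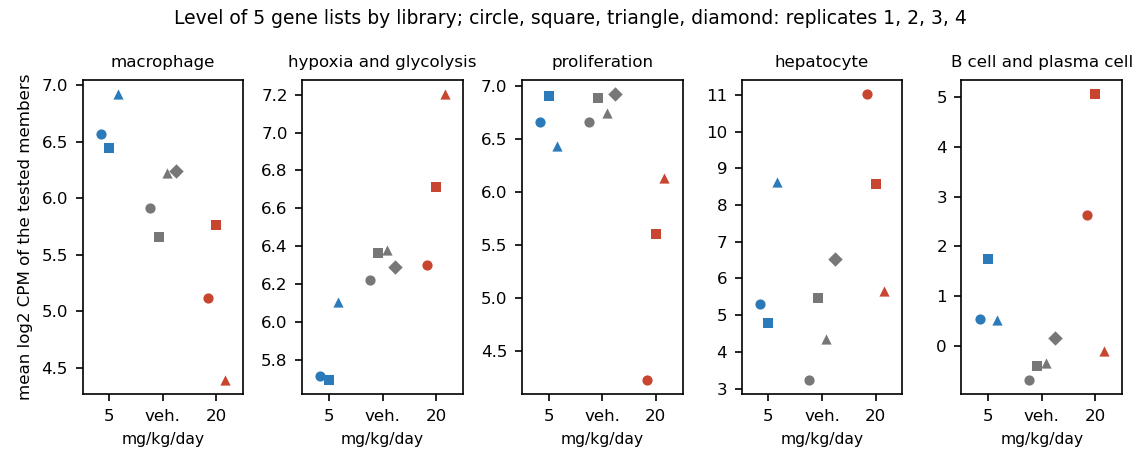
Mean log2 CPM of the tested members of 5 gene lists in each library, with symbols for replicates. Macrophage and proliferation levels are lower in all 3 high dose libraries than in all 3 low dose libraries, hypoxia levels are higher, and the hepatocyte and B cell levels overlap between the doses.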

How the data were processed

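RNA, from frozen tumor pieces per the labels (the study's methods speak of fresh tumor), was prepared with the TruSeq Stranded mRNA kit and sequenced on a NextSeq 500. The deposited values are raw read counts per gene, which the authors made with cutadapt 2.4, STAR 2.7.2a and its gene counting on GRCm38 with Gencode annotation. Which strand column was taken is not given in the sources used here, so overlapping and antisense genes are uncertain. No normalization had been applied by the authors.

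Counts of the 10 libraries of the dose experiment were analyzed in R 4.3.3. Of 54446 gene IDs, 54409 (99.93%) matched the annotation used for symbols and coordinates. Genes passing filterByExpr (minimum count 10, minimum total 15) were fitted with edgeR 4.0.16 (TMM scaling, robust quasi-likelihood, 3 groups, no block, 7 residual degrees of freedom). The contrast was high minus low dose, two-sided, with Benjamini-Hochberg adjustment over all 16525 genes at 0.05. SE is the size of the log2 change divided by the square root of F, and intervals are 95%. Log2 CPM used a prior count of 2. With 3 against 3 libraries an exact permutation test of a single gene cannot go below 0.1, so the fit across genes was used. The procedure was tested on simulated data with known changes, of which it called large ones far more often than small ones. Alternatives were other scalings and filters, DESeq2 1.42.0, limma 3.58.1 voom, a replicate block, a hepatocyte covariate, the dose groups alone and leaving out each library. 

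Genes were named from a fixed panel, the 12 largest rises and falls with non-overlapping doses and a mean log2 CPM of at least 1, the 4 members of each list with the smallest p, and the 8 most distant strictly opposed genes per direction. The members and the 32 lists were chosen with earlier results of these data known. Of 713 list entries 708 matched, and 43 genes stand in more than 1 list. Promoters of 11593 tested genes came from the RefSeq table (GRCm38.p6). Of 3 same-numbered pairs of low and high dose libraries, 0 had deviations correlated above 0.1, and of 9 such pairs over all groups 2 did. So few correlations cannot exclude a pairing, and the labels do not state one. No libraries looked like duplicates (chi-square per degree of freedom 13.97 or more). Counting error at totals of 16767130 or more is small beside the spread between libraries for most genes named. The other samples of the series were not used here, and a few genes that the rule names are not reported here.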

Additional observations from a re-analysis of the deposited data

Results flagged for a closer look

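Each group of 4 vehicle libraries was screened for a library whose gap to the nearest other exceeded 0.829 of the group's range, over 151 genes, lists and library measures, 13 of which met it (8.61%). Chance flags about 1 in 20 such groups. Dose groups of 3 were not screened. Values are log2 CPM for genes and mean log2 CPM for lists.

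Vehicle replicate 2 was high for Pcna at 7.79 (others up to 7.54), for Creb1 at 6.52 (others 6.06 to 6.11), for Gm16439 at 1.83 (others 1.54 to 1.59), for Nlrp3 at 3.79 (others 3.48 to 3.52) and for Ero1l at 7.35 (others from 6.52). Vehicle replicate 1 was low for Cd4 at 0.0953 (others 0.84 to 0.90), for Egln3 at 3.07 (others 3.85 to 3.94), for A2m at 0.57 (others 1.21 to 1.28) and for the dendritic cell list at 1.51 (others 2.05 to 2.08). Vehicle replicate 3 was low for Mmp12 at 1.88 (others 3.83 to 3.97), and high for the cytotoxic and NK list at 0.12 (others -0.58 to -0.50) and the list of T cell attracting chemokines at 3.13 (others 2.57 to 2.66). Vehicle replicate 4 was high for the erythrocyte list at 3.87 (others 1.85 to 2.03). The vehicle group enters the comparison of doses through the filter on low counts, the scaling, the estimate of the spread and as a reference level.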

How the results depend on the processing

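All 697 called genes that an alternative tested kept their direction in it. The number called, given as either direction, higher and lower, was 697, 288 and 409. It became 198, 59 and 139 with total count scaling (which moved the median of all genes by -0.15), 309, 68 and 241 without a filter, 3059, 1852 and 1207 with DESeq2, and 0, 0 and 0 with edgeR on the dose groups alone. Alternatives chosen after seeing the data, the dose groups alone with DESeq2 and with voom, gave 1410 and 859 (either, higher) and 0, 0 and 0. With the replicate block the numbers were 1, 0 and 1 (2869 at an unadjusted p under 0.05). Whether the replicate numbers pair libraries is not known, so it is open which of the 2 fits is apt. Over the fits that left out 1 library the ranges were 62 to 4488 called, 7 to 2562 higher, 55 to 1926 lower, 36 to 514 opposed, 34 to 202 strictly opposed, 2 to 10 hypoxia members higher and 6 to 17 macrophage members lower.

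Opposed genes among called (245) became 111 with total count scaling, 155 without a filter, 505 with DESeq2 and 0 with the block, and strictly opposed genes (128) became 77 with total count scaling and 0 with the block. Hypoxia members called higher (8) became 3 with total count scaling, 15 with DESeq2 and 0 with the block or on the dose groups alone (edgeR or voom), and macrophage members called lower (15) became 0 in these last 3 fits. The fit on the dose groups alone holds fewer samples and lacks the vehicle libraries, which were more alike than the high dose libraries. The cause of these changes was not tested.

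Genes that turned direction were not called in the reported fit, and of the reversed values only Clec4f with the hepatocyte covariate passed the threshold (adjusted p 0.0144). With total count scaling Egr1 was -0.15, Mapk14 -0.12, Kdr -0.16 and Clec4f -0.13. Without a filter Egr1 was -0.021. With voom Kdr was -0.30, Vsig4 -0.33 and Clec4f -0.36, and on the dose groups alone -0.27, -0.26 and -0.29. With the block Kdr was -0.078. With the hepatocyte covariate Egr1 was -0.11, Mapk14 -0.0085, Kdr -0.85, Alb -0.11, Apoe -0.45, Vsig4 -1.93 and Clec4f -2.37. Leaving out 1 library gave ranges of -0.27 to 0.49 for Kdr, -0.15 to 0.18 for Egr1, -0.038 to 0.10 for Mapk14, -0.53 to 0.32 for Cldn5, -0.53 to 0.92 for Angpt2, -0.29 to 1.33 for Pecam1, -0.16 to 0.40 for Eno1, -0.45 to 1.14 for Apoe, -1.22 to 2.17 for Vsig4 and -1.79 to 2.46 for Clec4f. Depth limits Gpr84 and Trem1 at the high dose, where libraries held 2 to 18 reads.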
